A study of Homo sapiens with 12 samples.

Results

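The 6 vehicle-treated cultures of MDA-MB-453 were taken as the resting transcriptome of the line, out of 12 libraries in all, and the other 6 libraries (10 nM dihydrotestosterone, DHT) were not analysed here. MDA-MB-453 is an established human breast cancer cell line, usually classed as molecular apocrine. Every vehicle culture was this line with no modification named in the labels, kept for 72 h in DMEM (high glucose, 10% FBS) and then for 6 h in 0.001% ethanol, the solvent of the androgen. Per the labels' protocols the 6 replicates were consecutive passages, so the spread between them covers passage and handling of 1 line and not different tumours. The standard medium was not described as stripped of steroids, so this baseline is one before added androgen. The series concerns AP-2 beta (TFAP2B) and the hormone-sensing cells of the mammary gland. The question asked of these libraries was which identity genes and receptors were on before androgen, and which genes differed between passages.

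Luminal cells of the mammary gland line the ducts, carry simple keratins and depend on the transcription factors FOXA1, GATA3 and the AP-2 family. Some of them are hormone-sensing, because they carry nuclear receptors for sex steroids, and they sit on a layer of basal, myoepithelial cells with KRT5, KRT14, TP63 and smooth-muscle genes. Apocrine differentiation, as in the sweat glands of the skin, adds secretory proteins such as AZGP1 and PIP and lipid enzymes. Molecular apocrine tumours lack estrogen receptor alpha while keeping much of the luminal factor set.

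The libraries held 4346465 (replicate 6) to 16963880 (replicate 2) counts, so 3 counts, the smallest number treated as more than a trace, were worth 0.177 to 0.690 CPM (the usual unit of counts scaled to the library total). Levels and variation were measured on different scales. TPM (the length-scaled counterpart of CPM) divides each count by the gene length given in the counts table and scales each library to the same sum, and it was used for levels. Bulk RNA of a culture was read, so fewer cells carrying a message and less of it per cell cannot be told apart. CPM over TMM-scaled totals was used for variation between cultures. Mitochondrially encoded genes took 10.8% to 22.4% of TPM and annotated pseudogenes 18.8% to 24.5%, and both were highest in replicate 5.

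Replicates 2 and 5 stood apart from the other 4 cultures. The correlation of log2 CPM across genes was 0.978 to 0.990 among replicates 1, 3, 4 and 6 and 0.873 to 0.927 for every pair with replicate 2 or 5 in it, with no test since genes are not independent. In replicate 2 the genes above the upper quartile of GC content (56.2%) lay 0.64 above the 6-library mean (median, log2 CPM), those below the lower quartile of annotated length (3089 bases) 0.47 above it, and those below the lower quartile of GC content (42.5%) 0.39 below it (-0.39). In replicate 5 the shortest genes lay 0.32 above the mean and the longest 0.23 below it (-0.23). Counts of list members that were on or variable are given both ways where they changed by more than 1 without these 2 libraries. Counts of protein-coding genes and of promoter windows, and mean levels, are over all 6 libraries.

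**Figure D1:**
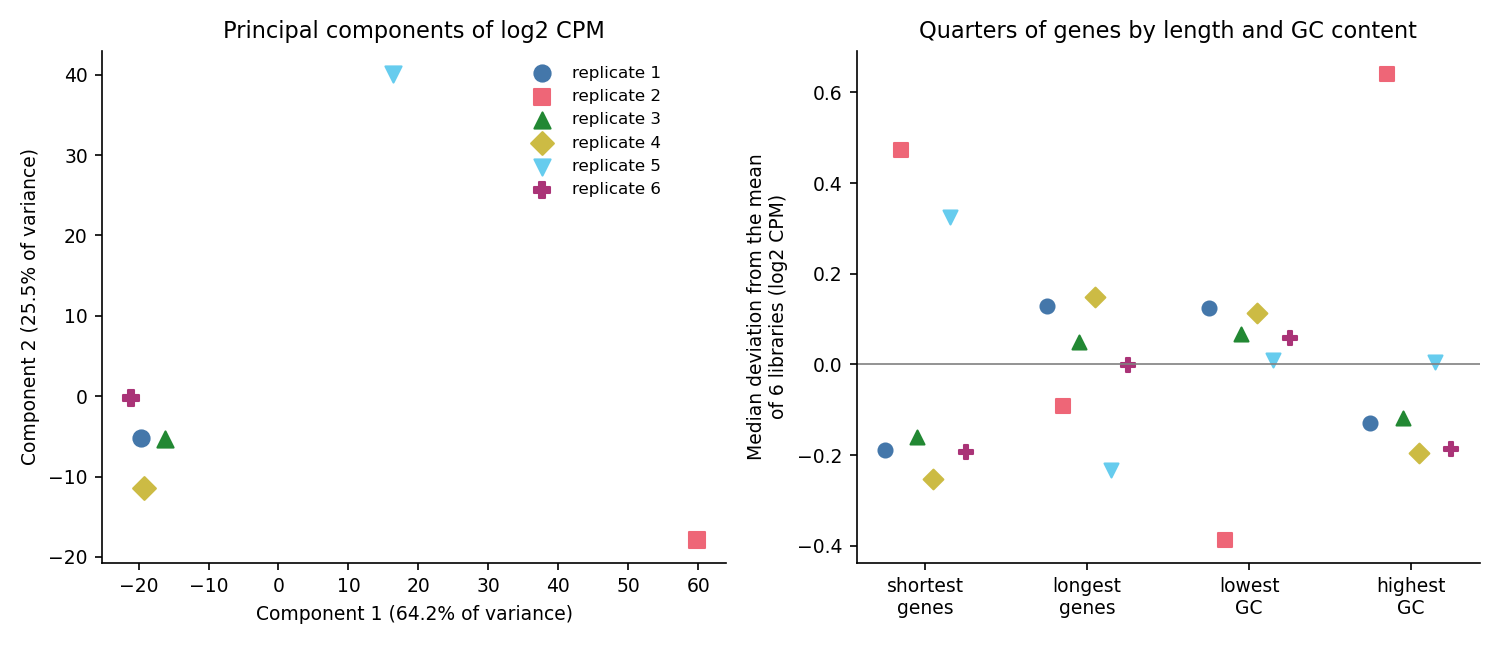
Left, the first 2 principal components of log2 CPM over genes with a mean of at least 10 CPM, 1 point per vehicle culture, in arbitrary units. Right, the median deviation of each culture from the 6-library mean (log2 CPM) for the genes beyond the lower or upper quartile of length and of GC content. Replicate 2 is separate on the first component (64.2% of the variance) and replicate 5 on the second (25.5%), while replicates 1, 3, 4 and 6 lie together.

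A gene was called on at 1 TPM or more in each of the 6 libraries, off below 0.5 TPM in each, and intermediate otherwise. By that rule 14556 of 60670 genes were on (24%), and 16128 without replicates 2 and 5. Among 19902 protein-coding genes 10523 were on (52.9%), 7136 were off (35.9%), and 3295 had no count in any library. All 7 genes used to check the identity of the line (TFAP2B, FOXA1, GATA3, ERBB2, KRT8, KRT18 and AZGP1) were on.

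The most abundant messages came from the mitochondrial genome. MT-CO1, a subunit of cytochrome c oxidase, held the highest level of all, with 21268 ± 3147 TPM (SD, n = 6). Copies of mitochondrial genes on nuclear chromosomes followed, led by MTCO1P12 on chromosome 1 at 8725 ± 1199 TPM, and how the authors' counting divided reads of 40 bp between such copies and the originals is not known, so these levels are uncertain. The same holds for ribosomal protein copies such as RPL10P16 (4454 ± 1623 TPM). RN7SL1, the RNA of the signal recognition particle, reached 4470 ± 1493 TPM. The 100 genes of highest mean held 29.2% ± 5.43 of all TPM (SD, n = 6), 16.3% by CPM and 18.3% with mitochondrially encoded genes left out.

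Among nuclear protein-coding genes the first was XBP1, the transcription factor of secretory and luminal cells (chromosome 22, 28794555 to 28800597, GRCh38). Its level was 2780 TPM in the lowest library, 3650 at the median and 4578 in the highest, replicate 2. TMSB10, an actin-binding peptide, followed at 2743 ± 1035 TPM, and CRABP2, which carries retinoic acid to its receptor, at 2264 ± 767 TPM. The glycolytic enzyme GAPDH (2097 ± 573 TPM) ranked 4, and the chaperone HSP90AB1 (1840 ± 299 TPM) ranked 6. CLCA2, an apocrine gene of the calcium-activated chloride channel regulator family, ranked 8 with 1786 ± 427 TPM, and KRT19, the smallest keratin of simple epithelia, ranked 9 with 1712 ± 634 TPM. The imprinted retrotransposon-derived gene PEG10 (1652 ± 734 TPM) ranked 11. A luminal factor, an apocrine gene and a luminal keratin were thus among the first 9 by this ranking. These ranks rest on the gene length in the counts table. They also depend on how reads were divided between genes and any pseudogene copies, which is not known. Annotated pseudogenes held 20.7% of TPM and cytosolic ribosomal protein genes 3.09% (means over the 6 libraries).

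Among the steroid receptors described here, those of corticosteroids were on and those of estrogen and progesterone were not. NR3C1, the glucocorticoid receptor, ran from 16.1 TPM through 35.9 to 40.9 TPM, lowest in replicate 5 and highest in replicate 4. NR3C2, the mineralocorticoid receptor, was on at 2.59 ± 0.874 TPM. ESR1, estrogen receptor alpha, was off at 0.0932 ± 0.0545 TPM, resting on 29 counts over all 6 libraries. PGR, the progesterone receptor, was off at 0.0662 ± 0.0402 TPM with 26 counts. ESR2, estrogen receptor beta, ran from 0.0344 to 0.651 TPM and was highest in replicate 4, where 26 of its 53 counts lay. The estrogen and progesterone receptors were thus under 0.5 TPM in every library, except ESR2 in replicate 4.

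Of the 4 ERBB receptors, ERBB2 and ERBB3 were on. ERBB2, the receptor known as HER2, ran from 229 TPM (replicate 5) through a median of 355 to 454 TPM (replicate 2). ERBB3, its kinase-impaired partner, ran from 59.3 through 123 to 145 TPM. ERBB2 exceeded ERBB3 in 6 of 6 libraries, by 1.64 ± 0.30 on the log2 TPM scale (SD, n = 6). EGFR (1.45 ± 0.633 TPM) and ERBB4 (1.20 ± 0.557 TPM) were intermediate, falling under 1 TPM in replicates 2 and 5 and lying above 1 TPM in the other 4 libraries. Without replicates 2 and 5 all 4 ERBB receptors were therefore on.

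Of 18 other receptor tyrosine kinases 10 were on (55.6%), near the 52.9% of protein-coding genes. FGFR4, a receptor of fibroblast growth factors (chromosome 5, 177086905 to 177098144), had the highest level of any receptor in the lists. It measured 926 TPM in the lowest library, 1386 at the median and 1804 in the highest. That put FGFR4 at rank 22 of the nuclear protein-coding genes, against rank 246 for ERBB2, and the FGFR4 range did not overlap that of ERBB2. Ranks and ranges rest on the gene length in the counts table. Neither was recomputed with the average transcript length of the authors' other table. The collagen receptor DDR1 followed at 105 ± 28.5 TPM. MET, the receptor of hepatocyte growth factor, was off with 3 counts in all, whereas MST1R, its closest relative, which binds macrophage-stimulating protein, was on at 74.9 ± 21.3 TPM. This choice of MST1R was made after its value was seen.

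Among 12 hormone and cytokine receptors 6 were on (50%), near the 52.9% of protein-coding genes, and 8 without replicates 2 and 5. The receptors of growth hormone (GHR, 37.7 ± 15.1 TPM) and prolactin (PRLR, 32.8 ± 10.6 TPM) led the list. CALCR, the calcitonin receptor, had no count in any library. TNFRSF11A, the receptor RANK that receives a signal sent by hormone-sensing cells, was off at 0.287 ± 0.103 TPM.

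Luminal transcription factors were on almost throughout, 15 of 16 (93.8%), against 52.9% of protein-coding genes. GATA3, a zinc-finger factor of luminal cells, ran from 470.0 through 809 to 1016 TPM. The ETS factor SPDEF ran from 560 through 713 to 1276 TPM, and the pioneer factor FOXA1 from 221 through 446 to 529 TPM. Replicate 5 was the lowest library for all 3, and replicate 2 was the highest for SPDEF only. GATA3 exceeded FOXA1 in 6 of 6 libraries, by 0.95 ± 0.10 on the log2 TPM scale, and by 0.32 with the average transcript length of the authors' other table. EHF, an epithelial ETS factor, held 207 ± 69.8 TPM, and TRPS1, a GATA-type repressor common in breast cancer, held 155 ± 56.1 TPM. The grainyhead factors GRHL2 (62.0 ± 18.0 TPM) and GRHL1 (33.4 ± 13.0 TPM), the T-box factor TBX3 (55.2 ± 21.7 TPM), MYB (27.2 ± 7.47 TPM), ELF3 (15.8 ± 3.39 TPM) and KLF5 (3.31 ± 1.42 TPM) were on at lower levels. The only member not on was CITED1, a transcriptional coregulator, at 0.348 ± 0.279 TPM from 14 counts.

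TFAP2B was the highest of the 3 AP-2 genes listed. It ran from 155 TPM (replicate 5) through 322 to 362 TPM (replicate 6). TFAP2A held 63.9 ± 16.5 TPM and TFAP2C, better known from luminal tumours, 42.1 ± 11.9 TPM. TFAP2B exceeded TFAP2A by 2.13 ± 0.13 and TFAP2C by 2.74 ± 0.14 on the log2 TPM scale, in 6 of 6 libraries each. With that other transcript length in place of the length in the counts table, these 2 differences became 0.95 and 3.24. TFAP2B was first under both lengths, while its lead over TFAP2A depends on the length used.

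The structural genes of luminal epithelium were on in 16 of 17 cases (94.1%), against 52.9% of protein-coding genes. KRT19 ran from 1304 through 1495 to 2995 TPM, and the highest library, replicate 2, lay far above the other 5, which ended at 1516 TPM. Replicate 2 was also the highest library for KRT7 (477 TPM, against 213 to 262 elsewhere) and for the claudin CLDN3 (391 TPM, against 138 to 209). The simple keratins KRT7 (269 ± 104 TPM), KRT18 (247 ± 49.9 TPM) and KRT8 (205 ± 67.9 TPM) all lay below KRT19. KRT8 lay below KRT19 in 6 of 6 libraries, by -3.05 ± 0.11 on the log2 TPM scale, or -2.28 with the other transcript length. How the counting divided reads between these keratins and any pseudogene copies of them is not known. KRT18 exceeded its partner KRT8 in 5 of 6 libraries by 0.30 ± 0.26, and with the other transcript length the sign turned to -0.83, so no order of these 2 keratins can be given. Cell adhesion was represented by EPCAM (355 ± 72.6 TPM) and the tight-junction claudin CLDN3 (208 ± 93.3 TPM). The surface sialoglycoprotein CD24 held 298 ± 60.9 TPM. The junction genes JUP, CTNNA1, CLDN7, CLDN4, CTNNB1 and DSP had means of 12.9 (DSP) to 171 TPM (JUP). CDH1, E-cadherin, was on at 20.9 ± 8.56 TPM, and CTNND1, the p120 catenin that holds it at the membrane, stood at 5.12 ± 1.36 TPM. Whether reads of CTNND1 were assigned to an overlapping gene was not tested. MUC1, an apical mucin of luminal cells, was the single member not on, at 0.691 ± 0.543 TPM with 1 count in replicate 1.

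The apocrine list was split, with 10 of 26 genes on, 10 intermediate and 6 off. Its share on (38.5%) was below the 52.9% of protein-coding genes. At the top CLCA2 ran from 1221 through 1851 to 2319 TPM. AZGP1, a secreted zinc-binding glycoprotein of apocrine and prostate epithelium, ran from 536 through 584 to 635 TPM. FASN, the fatty acid synthase, held 384 ± 80.8 TPM. PIP, the prolactin-induced secretory protein known as GCDFP-15, ran from 72.5 TPM in replicate 2 through 145 to 219 TPM in replicate 1. These 4 genes were far above the threshold in every library. KMO, an enzyme of tryptophan breakdown, was on at 38.1 ± 7.90 TPM, while KYNU, which acts next in that pathway, was off at 0.187 ± 0.0823 TPM. The small breast mucin MUCL1 was on at 20.1 ± 7.77 TPM. The mammaglobin gene SCGB2A2 was intermediate, at 3.52 ± 2.08 TPM, because replicate 2 held 0.639 TPM. APOD, an apolipoprotein that marks apocrine cysts, was intermediate at 0.752 ± 0.784 TPM and had no count in replicate 3. ALCAM, an adhesion molecule, held 88.5 ± 35.6 TPM, and CYP4Z1, a cytochrome P450 of mammary tissue, 6.02 ± 2.93 TPM. SRD5A1, a 5-alpha reductase that turns testosterone into DHT, was on at 5.72 ± 1.37 TPM, and FABP7, a fatty acid binding protein, at 1.56 ± 0.527 TPM. The secretoglobins SCGB2A1 and SCGB1D2, ACSM1, CYP4B1, CYP4X1, DHRS2 and UGT2B11 were among the intermediate genes, with means of 0.226 (UGT2B11) to 1.20 TPM (CYP4B1). Besides KYNU, CYP4F8, GGT1 and HPGD, 2 members were off: UGT2B28, which conjugates androgens, with 4.08 counts in all, and the lipoxygenase ALOX15B with 3. The baseline thus carried a few apocrine genes at very high levels, while the 16 not on had means of at most 3.52 TPM.

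Basal and myoepithelial genes were on in 6 of 22 cases, below the 52.9% of protein-coding genes, with 13 intermediate and 3 off, and 8 were on without replicates 2 and 5. Those on were MME (44.9 ± 9.48 TPM), which encodes the surface peptidase CD10, the integrins ITGA6 (30.2 ± 9.29 TPM) and ITGB4 (24.9 ± 5.46 TPM), the smooth-muscle gene TAGLN (3.74 ± 1.26 TPM), P-cadherin CDH3 (3.07 ± 0.776 TPM) and TP63. TP63, the p63 factor of basal cells, ran from 1.57 through 4.00 to 5.37 TPM. EGFR, OXTR, LAMB3, MYH11, MYLK, ACTA2, CAV1, SNAI2 and the keratins KRT5, KRT14, KRT16, KRT17 and KRT6B were intermediate, with means of 0.192 (KRT6B) to 1.45 TPM (EGFR), and KRT6A, CNN1 and LAMA3 were off. Smooth-muscle genes of myoepithelium were thus low, TAGLN excepted. The basal keratins KRT5 and KRT14 had an uneven spread. KRT5 had 37 counts in replicate 4 and 28.2 in replicate 5, against 0.33 to 5.83 in the other 4 libraries. KRT14 had 14 and 13.2 counts in the same 2 libraries and at most 2 elsewhere. LTF, the milk protein lactoferrin, which was not in that list, followed the same order with 71.5 and 42 counts in replicates 4 and 5 and at most 5 elsewhere. Replicates 4 and 5 were thus the 2 libraries with most of the KRT5 and KRT14 counts, at 1.04 to 2.09 TPM for KRT5. The basal list as a whole summed highest in replicate 4 (151 TPM) and lowest in replicate 5 (78.55 TPM). The spread of KRT5, KRT14 and LTF was picked out after their values were seen. Whether other material entered these 2 libraries was not tested.

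**Figure D2:**
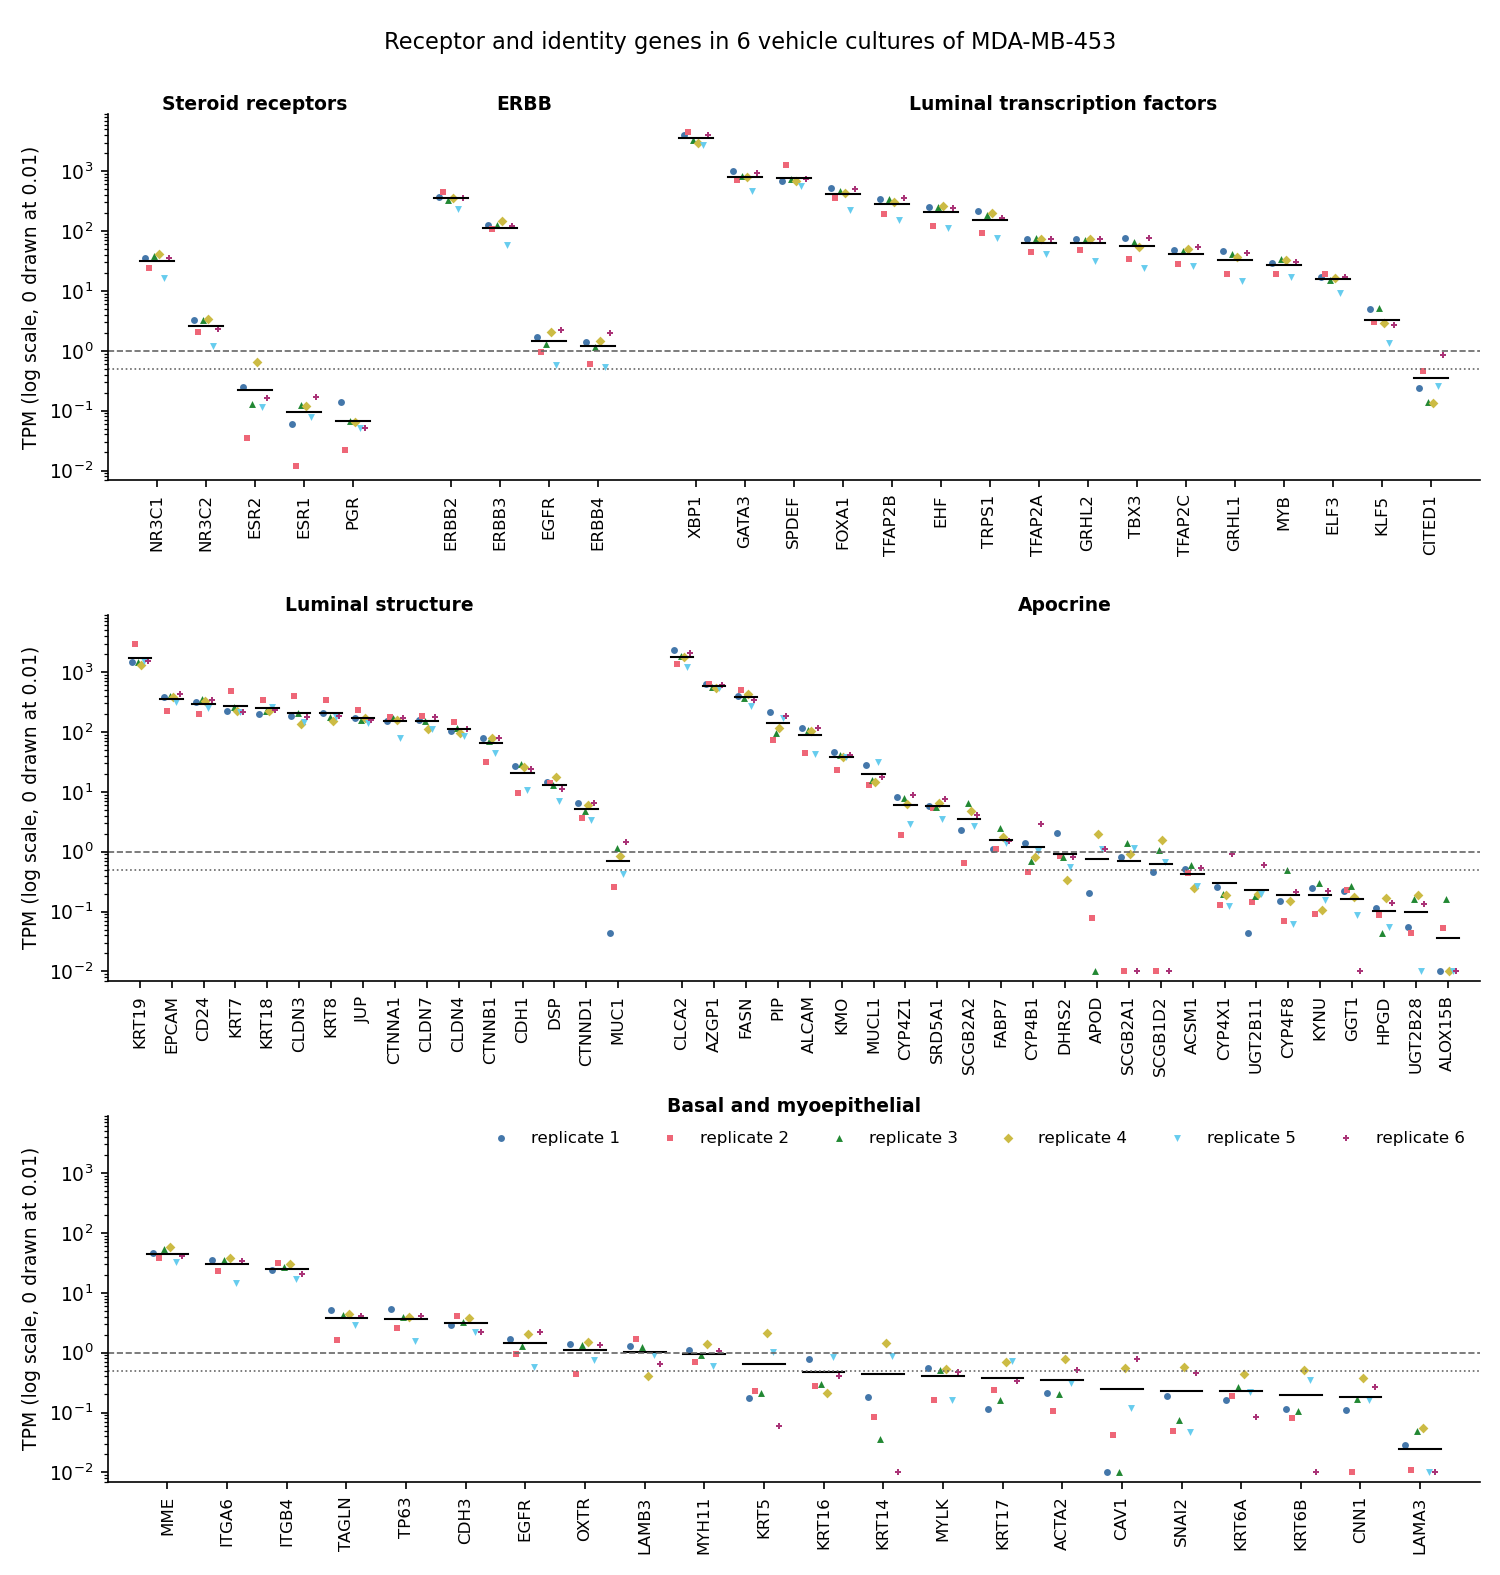
TPM (log axis) of the members described from 6 gene lists in each of the 6 vehicle cultures. Points are cultures, black bars are means, the dashed line is the 1 TPM threshold for on and the dotted line the 0.5 TPM threshold for off, and values of 0 are drawn at 0.01. ERBB2, most luminal factors and the upper apocrine genes lie far above the dashed line in all cultures, whereas ESR1, PGR and most basal keratins lie under it.

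Effectors that hormone-sensing cells use were on in 11 of 19 cases (57.9%), near the 52.9% of protein-coding genes. ESR1 and PGR, also in that list, were off. AGR2, an endoplasmic reticulum disulfide isomerase of secretory cells, ran from 312 through 533 to 926 TPM, highest in replicate 5. CA12, a membrane carbonic anhydrase, held 303 ± 102 TPM. The trefoil peptide TFF1, a classic estrogen-induced gene, was on at 86.9 ± 21.9 TPM. GREB1, another gene known for its response to estrogen, was off at 0.108 ± 0.101 TPM. TNFSF11, the ligand RANKL, had 1 count in all. TFF1 and GREB1 thus stood on opposite sides of the thresholds in the same libraries, and both were picked out after their values were seen.

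Genes of luminal progenitors and milk production were mostly off, 9 of 13 measured (35.9% of protein-coding genes were off), with 2 on. The caseins CSN1S1, CSN2 and CSN3 and LALBA had no count in any library. SLPI, a secreted protease inhibitor, was the highest at 41.4 ± 18.0 TPM, and KRT23 followed at 4.63 ± 1.57 TPM.

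Markers of other cell types were low. None of 10 leukocyte, 6 endothelial or 5 adipocyte genes was on, against 52.9% of protein-coding genes. The leukocyte genes CD3E, CD2 and MS4A1 had no count. The 10 leukocyte genes summed to between 0 and 2.79 TPM, highest in replicate 6. Of 10 fibroblast genes only COL1A1, the main fibrillar collagen chain, was on, at 26.1 ± 5.21 TPM, with 16.0 TPM in the lowest library. Its partner chain COL1A2 stood at 1.12 ± 0.826 TPM. Of 10 mesenchymal genes only CDH2, N-cadherin, was on (2.33 ± 0.957 TPM), and VIM, vimentin, was intermediate (0.727 ± 0.659 TPM). Replicate 6, the shallowest library, had the highest level of COL3A1 (6.30 TPM against 0.737 to 2.08), POSTN (3.34 TPM against 0.195 to 0.933), SPARC (4.42 TPM against 0.588 to 2.37) and FN1 (4.99 TPM against 0.639 to 1.88), which rested on 24 to 113 counts there. These 4 matrix genes were picked out after their values were seen, and COL1A1, the most abundant fibroblast marker, was not raised in replicate 6 (29.4 TPM, against 29.8 TPM in replicate 4). The fibroblast list as a whole summed to 19.2 to 44.9 TPM, highest in replicate 6, with 36.4 TPM in replicate 4 next. The mesenchymal list summed to 3.05 to 15.9 TPM, also highest in replicate 6, with 9.04 TPM in replicate 4 next. The adipocyte list summed to at most 2.18 TPM, in replicate 6, and the endothelial list to at most 2.22 TPM, in replicate 4.

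Proliferation genes were on throughout, 22 of 22. PCNA, the sliding clamp of DNA replication, held 778 ± 154 TPM and CCND1, cyclin D1, 494 ± 117 TPM. MKI67, the nuclear antigen of cycling cells, ran from 43.7 through 71.2 to 134 TPM and was highest in replicate 4. Sterol synthesis was on in 18 of 19 cases. All 16 genes of protein folding in the endoplasmic reticulum and all 12 heat-shock genes were on. Shares on well above the 52.9% of protein-coding genes were thus not particular to the luminal lists.

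Amino-acid stress genes were on in 18 of 20 cases (90%, against 52.9% of protein-coding genes) and the exceptions were biosynthetic enzymes. TRIB3, a pseudokinase induced by ATF4, ran from 204 through 262 to 641 TPM. ATF4 itself held 500 ± 103 TPM. ASNS, asparagine synthetase, was intermediate at 0.475 ± 0.191 TPM with 57 counts over all 6 libraries. PSAT1, the second enzyme of serine synthesis, was off at 0.188 ± 0.104 TPM with 9.5 counts, while the enzyme before it, PHGDH (175 TPM in replicate 2, 53.9 to 67.3 TPM elsewhere), and the enzyme after it, PSPH (52.1 ± 12.4 TPM), were on. A serine pathway with its middle enzyme at trace level was thus seen in 6 of 6 libraries. Whether reads of ASNS or PSAT1 were assigned to an overlapping gene or a copy was not tested, so these low levels are uncertain.

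Promoter CpG content was compared with the state of the genes. The comparison used windows of 300 bases (250 before and 50 after the start) from RefSeq on GRCh38.p14. A single window was listed for 11303 protein-coding genes (56.8% of them), and the others, with several starts or no match, were left out. A window was called CpG-rich when its observed over expected CpG ratio was at least 0.6 and its GC content at least 50%. Of 7348 CpG-rich windows 74.1% belonged to genes that were on, and of 3955 CpG-poor windows 18.8%. Among the 18 apocrine genes with a window 2 were CpG-rich (11.1%), against 65.0% of all 11303. The 9 of them that were on had a median of 3 CpG dinucleotides, against 27 over all genes on, and no test was made since the list was chosen with earlier results known. Low CpG content was not particular to the apocrine list, since 0 of 5 basal, 0 of 6 leukocyte and 2 of 6 luminal progenitor genes with a window were CpG-rich. CLCA2 had no CpG at all and was the most abundant of the 745 CpG-poor genes that were on. Luminal factors were on in 6 of 6 cases with a window and were divided, 3 CpG-rich and 3 CpG-poor.

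**Figure D3:**
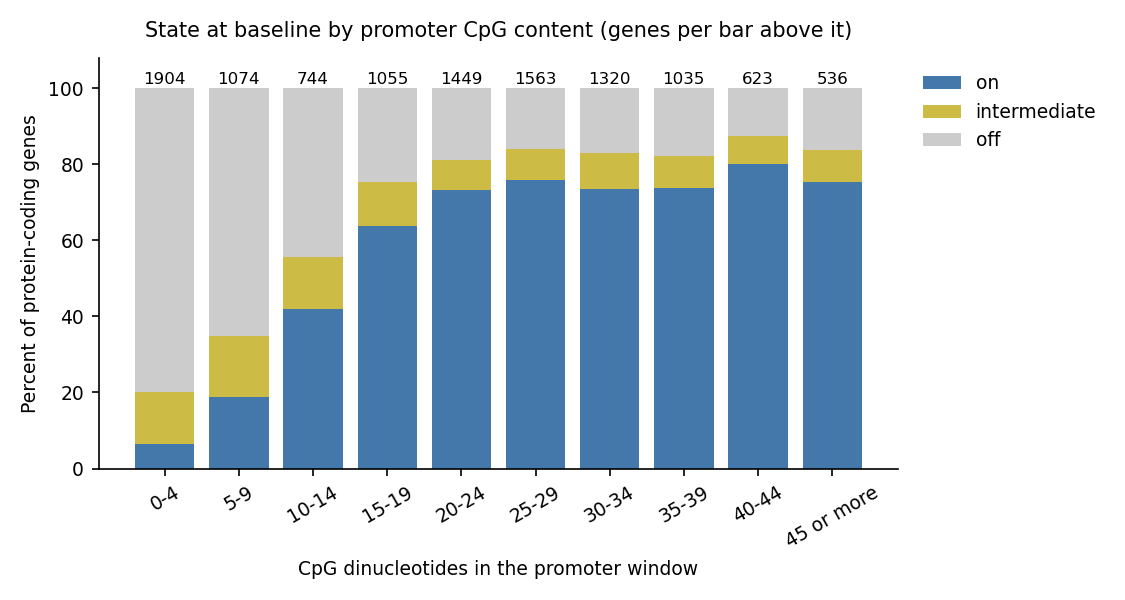
Share of protein-coding genes (percent) that were on, intermediate or off in the vehicle cultures, by the number of CpG dinucleotides in the promoter window of 300 bases. Numbers above the bars are genes. The share on rises from 6.46% of 1904 genes with 0 to 4 CpG to 73.2% of 1449 genes with 20 to 24, and stays between 73.2% and 79.9% beyond that.

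The 250 bases before the listed start are shown for 3 apocrine genes at high level and for ERBB2 and FOXA1, to set CpG-poor beside CpG-rich windows. Each is written 5′ to 3′ on the strand of the gene, in lower case, with every CpG dinucleotide in capitals. CLCA2 lies at chr1:86423921-86424170 on the plus strand, AZGP1 at chr7:99976032-99976281 on the minus strand, PIP at chr7:143131827-143132076 on the plus strand, ERBB2 at chr17:39687844-39688093 on the plus strand and FOXA1 at chr14:37595250-37595499 on the minus strand.
CLCA2: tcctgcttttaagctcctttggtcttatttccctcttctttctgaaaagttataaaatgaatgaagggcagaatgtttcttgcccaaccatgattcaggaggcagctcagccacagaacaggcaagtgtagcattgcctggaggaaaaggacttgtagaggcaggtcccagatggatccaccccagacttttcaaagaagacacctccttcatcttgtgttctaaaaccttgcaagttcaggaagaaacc
AZGP1: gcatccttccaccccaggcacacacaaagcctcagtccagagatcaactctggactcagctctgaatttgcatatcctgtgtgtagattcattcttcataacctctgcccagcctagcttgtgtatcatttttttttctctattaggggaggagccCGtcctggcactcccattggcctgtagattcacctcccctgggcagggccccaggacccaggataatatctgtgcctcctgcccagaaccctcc
PIP: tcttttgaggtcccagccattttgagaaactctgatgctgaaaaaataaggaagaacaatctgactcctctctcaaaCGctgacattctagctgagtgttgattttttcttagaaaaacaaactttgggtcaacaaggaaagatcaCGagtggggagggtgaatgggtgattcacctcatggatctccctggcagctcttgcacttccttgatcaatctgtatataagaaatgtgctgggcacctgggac
ERBB2: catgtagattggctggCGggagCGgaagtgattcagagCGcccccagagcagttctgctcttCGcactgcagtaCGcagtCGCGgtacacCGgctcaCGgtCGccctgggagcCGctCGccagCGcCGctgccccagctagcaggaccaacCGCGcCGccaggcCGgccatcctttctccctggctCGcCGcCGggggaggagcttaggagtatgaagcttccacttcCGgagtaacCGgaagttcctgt
FOXA1: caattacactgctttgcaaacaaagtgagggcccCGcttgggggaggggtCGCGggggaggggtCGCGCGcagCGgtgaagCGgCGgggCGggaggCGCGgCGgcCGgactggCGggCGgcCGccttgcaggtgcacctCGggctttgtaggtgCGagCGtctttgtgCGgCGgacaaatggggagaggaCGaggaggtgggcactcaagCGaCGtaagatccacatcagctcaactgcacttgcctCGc
These stretches hold 0, 1 and 2 CpG in CLCA2, AZGP1 and PIP, and 23 and 26 in ERBB2 and FOXA1, at a GC content of 44.8%, 52.8% and 43.6% against 65.6% and 67.2%. Each lies before the single start listed for its gene, and whether that start was in use in these cultures was not tested. The CpG content at the start in use, for ERBB2 as for the others, is therefore not known.

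Variation between the cultures was described by an excess coefficient of variation (CV), the CV of CPM left after the part that counting alone gives is subtracted. A gene was called variable at an excess CV of at least 0.3, among 10207 genes with a mean of at least 10 CPM. By that rule 2986 genes were variable (29.3%), and the median excess CV was 0.219. The highest library was replicate 2 for 1806 of them, replicate 5 for 857, and one of the other 4 for 323. Without replicates 2 and 5, 106 of 10298 genes were variable (1.03%), and 93 of the 106 were also variable over all 6. Without replicate 2 alone 1232 genes were variable, and with the trends of each library with gene length and GC content removed 1168 were. The common biological CV of edgeR was 0.282 over all 6 cultures and 0.104 without replicates 2 and 5.

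The most variable gene was CHAC1, a glutathione-degrading enzyme induced by ATF4, with an excess CV of 1.92. It had 149 CPM in replicate 2 and 4.36 to 9.02 CPM in the other 5 libraries. The 14 that came next were TPGS1, LRRC26, TMEM238, SESN2, TMEM160, IFIT1, SLC7A5, OAS1, DDIT4, IFI6, RPL28, CLIC3, MT-TY and ALKBH7, with an excess CV of 0.902 to 1.09. Apart from the interferon-induced IFIT1, OAS1 and IFI6 and the mitochondrial tyrosine transfer RNA gene MT-TY, these were highest in replicate 2. SESN2, a stress-induced inhibitor of the mTORC1 kinase, had 199 CPM there and 30.9 to 42.5 CPM elsewhere. SLC7A5, the carrier of large neutral amino acids, had 238 CPM there and 37.4 to 57.7 CPM elsewhere.

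**Figure D4:**
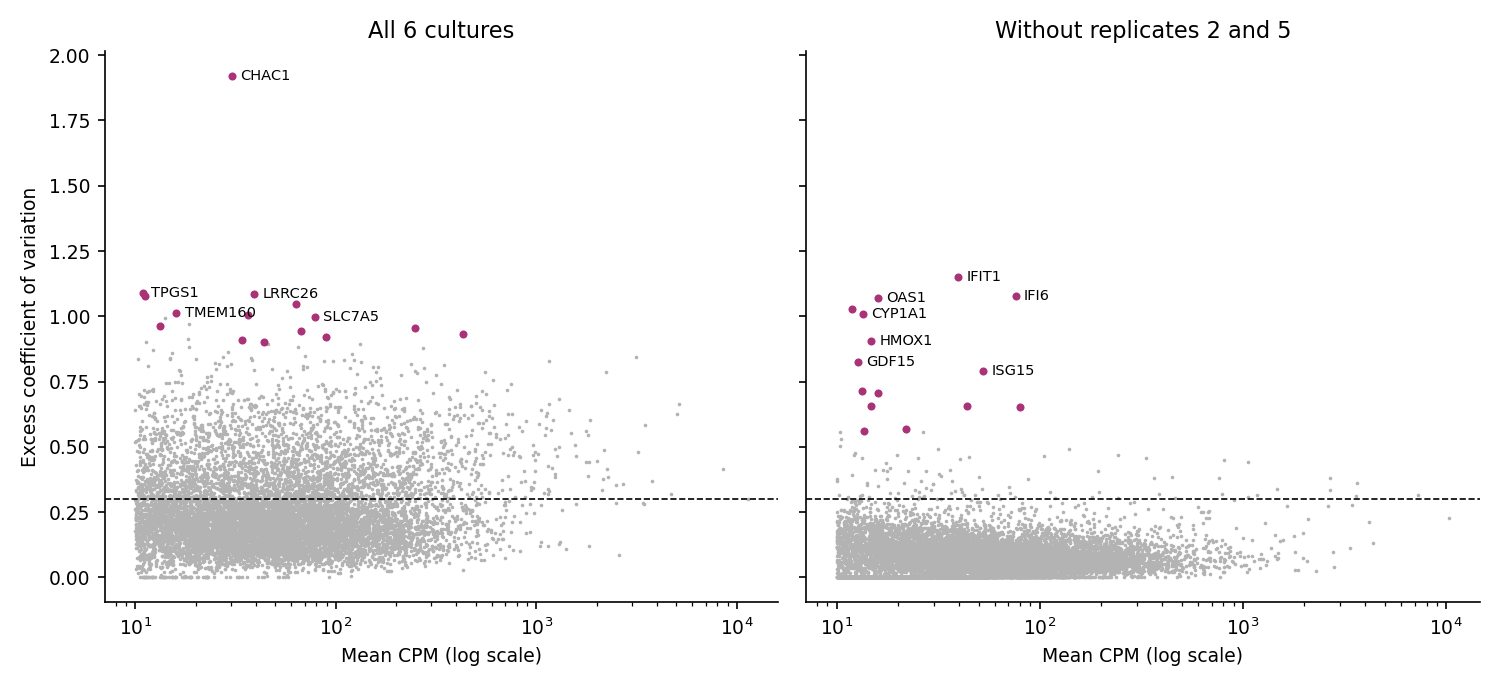
Excess coefficient of variation against mean CPM (log axis), 1 point per gene with a mean of at least 10 CPM, over all 6 cultures (left) and without replicates 2 and 5 (right). The dashed line is the 0.3 threshold and the 15 most variable genes are coloured, with some named. The cloud reaches far above the line on the left (2986 genes) and hardly on the right (106 genes), where interferon genes lead.

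Among the lists with at least 3 genes at 10 CPM or more, the amino-acid stress list (integrated stress response) was the most raised in replicate 2. Of its 16 genes with at least 10 CPM, 14 were variable, against 29.3% of all genes. Their median lay 1.27 above the 6-library mean in replicate 2 (log2 CPM), where the median of all genes lay 0.12 above it. After the trends with length and GC content were removed from each library, the list still lay 0.87 above the mean in replicate 2, and the median of all genes 0.03 above it. Without replicates 2 and 5, 1 of 15 members was variable, SLC7A11 with an excess CV of 0.556. TRIB3 shows the pattern, with 914 CPM in replicate 2 against 199.9 to 288 CPM. Replicate 2 also had the lowest share of the nuclear noncoding RNAs, 5 of which passed, and their median lay 1.49 below the mean (-1.49). MALAT1, a nuclear-retained RNA, had 165 CPM in replicate 2 against 459 to 778 CPM, and NEAT1, the scaffold of paraspeckles, had 39.6 against 132 to 178 CPM. The part of RNA composition in the raised stress list was not tested.

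Interferon-induced genes were variable with and without the 2 libraries. Of 12 that passed, 11 were variable over all 6 cultures and 8 of 12 without replicates 2 and 5, where the background was 1.03%. Their median lay 0.94 above the mean in replicate 1 and 0.50 above it in replicate 5, and 0.54 and 0.67 below it in replicates 3 and 4 (-0.54 and -0.67). IFIT1, an RNA-binding antiviral protein, had 97.6 CPM in replicate 1, 61.8 in replicate 5, 31.6 in replicate 6 and 6.60 to 10.3 in the other 3 libraries, a 14.8-fold range. IFI6, an antiviral membrane protein, ran from 11.5 to 175 CPM and OAS1, which makes the activator of RNase L, from 2.54 to 36.8 CPM, both lowest in replicate 3 and highest in replicate 1. The 4 passages that lay together on the principal components did not share a level of these genes.

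Other genes led the 4 remaining cultures too, and they were listed after replicates 2 and 5 had been seen to stand apart. The 15 of largest excess CV without these libraries were IFIT1, IFI6, OAS1, DDX60, CYP1A1, HMOX1, GDF15, ISG15, EGR1, IRF9, UBE2L6, RIGI, NDRG1, MTND6P22 and FN1. CYP1A1, the enzyme induced through the aryl hydrocarbon receptor, had 30.5 CPM in replicate 1 and 2.86 to 11.1 CPM in replicates 3, 4 and 6. HMOX1, heme oxygenase, had 32.1 CPM in replicate 1 and 4.50 to 9.14 CPM in the same 3. NDRG1, a gene raised by low oxygen, ran the other way, with 21.6 CPM in replicate 1 and 56.0 to 137 CPM in replicates 3, 4 and 6. CA9, the carbonic anhydrase of hypoxic cells, had 0.416 CPM in replicate 1 and 14.0 CPM in replicate 2. Replicate 1 was therefore the highest library for IFIT1, IFI6, OAS1, CYP1A1 and GDF15, a stress-induced secreted factor, and the lowest for NDRG1 and CA9, whereas ISG15, an interferon-induced ubiquitin-like protein, was highest in replicate 5 (116 CPM).

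Cytosolic ribosomal protein genes were variable in 80 of 81 cases over all 6 cultures and in 0 of 80 without replicates 2 and 5. Their median lay 0.73 above the mean in replicate 2 and 0.96 above it in replicate 5. They are short genes (median annotated length 2930 bases against 5111 over all genes that passed), and with the length and GC trends removed the medians were 0.50 and 0.77. RPL28, a protein of the large subunit, had 1229 CPM in replicate 2 and 168 to 454 CPM in the others. Annotated pseudogenes also took their largest shares of TPM in replicates 2 and 5 (22.8% and 24.5%, against 18.8% to 19.7% elsewhere). How reads were divided between ribosomal protein genes and their copies is not known, so these levels are uncertain.

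**Figure D5:**
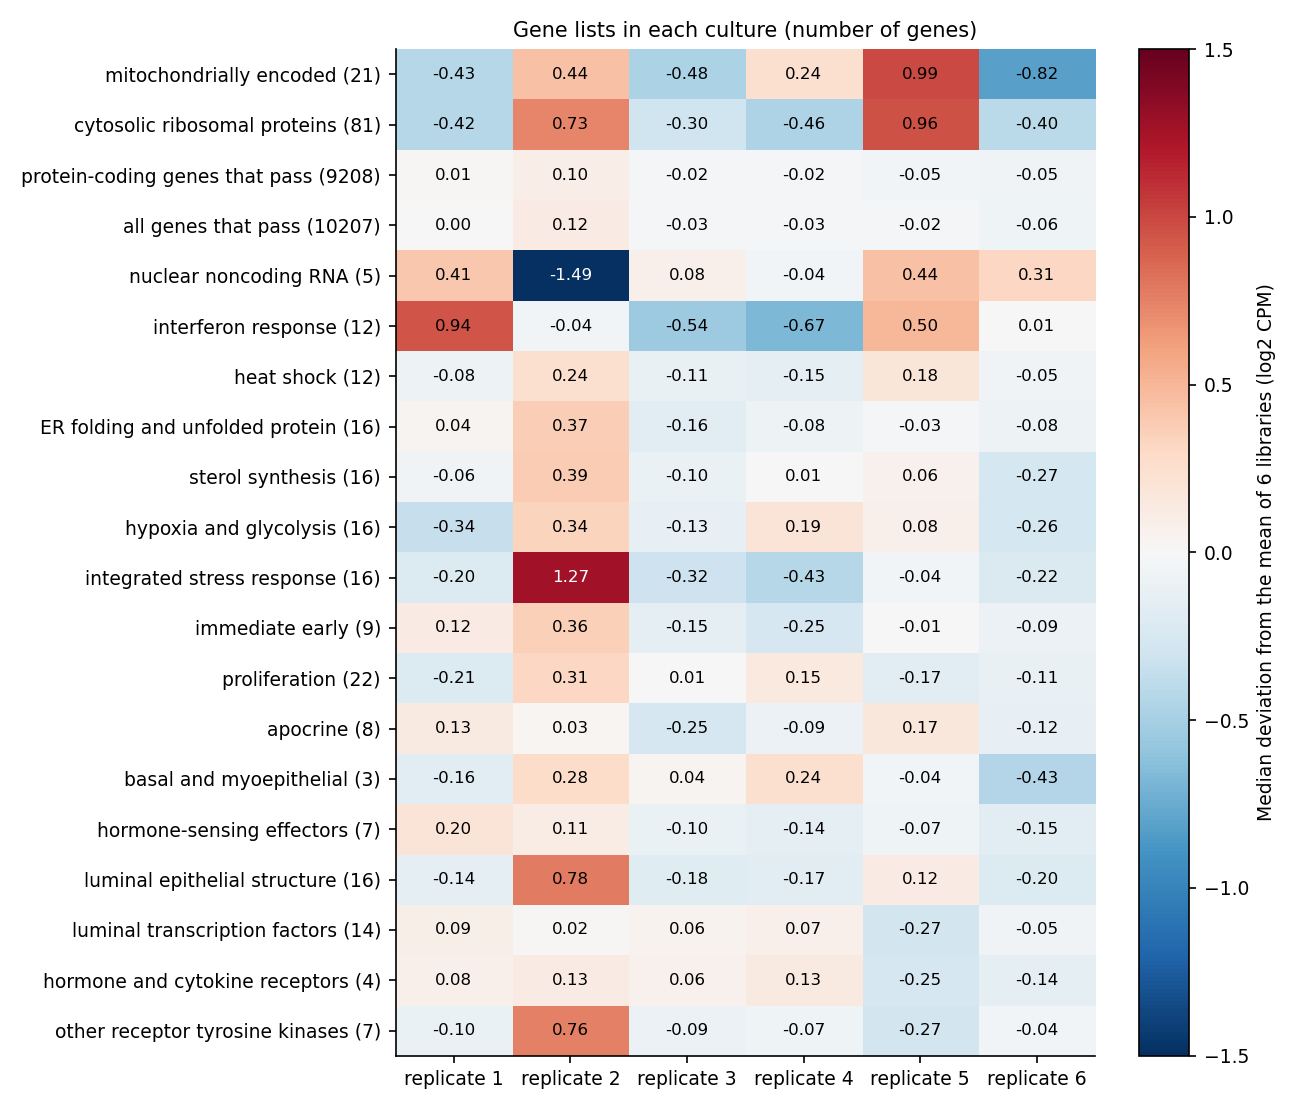
Median deviation from the 6-library mean (log2 CPM, printed in each cell) of gene lists with at least 3 members at 10 CPM or more, by culture, with the number of genes in brackets. Red is above and blue below the mean. The amino-acid stress list (integrated stress response) is highest in replicate 2 (1.27), the interferon list in replicate 1 (0.94) and the cytosolic ribosomal proteins in replicate 5 (0.96).

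Of the 14 luminal factors with at least 10 CPM 3 were variable (21.4%), a share near the 29.3% of all genes. These were XBP1, SPDEF and ELF3, and no luminal factor was variable without replicates 2 and 5. CLCA2 had an excess CV of 0.0863, TFAP2B 0.105, FOXA1 0.152 and GATA3 0.168, all under the median of 0.219. The TPM of these 4 genes was lowest in replicate 5. Mitochondrially encoded genes took their largest share of TPM there (22.4%). In the same library the longest genes lay 0.23 below the mean (-0.23, median, log2 CPM) and the shortest 0.32 above it. Whether the mitochondrial share or the trend with length lowered the TPM of these 4 genes was not tested. On the scale of CPM over TMM-scaled totals the range was narrower for CLCA2, from 2351 to 2914 CPM, with replicate 3 the lowest. Luminal structural genes were variable in 10 of 16 cases, with their median 0.78 above the mean in replicate 2 (0.38 with length and GC trends removed), and in 0 of 16 without replicates 2 and 5. Of 8 apocrine genes that passed 3 were variable, FASN, PIP and MUCL1, and the last 2 remained so without replicates 2 and 5. On the same CPM scale the secreted products PIP (15.8 to 46.5 CPM) and MUCL1 (17.7 to 58.4 CPM) were highest in replicate 5. By TPM, PIP was highest in replicate 1 instead, so its top culture depends on the scale. The genes of least excess CV, at 0, were VPS26A, STK38, ASB8, SLC4A1AP, INTS10, RNF34, GRIPAP1, C1orf112, EPB41L5 and WRAP73, whose spread was no larger than counting gives. VPS26A, a part of the retromer that recycles membrane proteins, ran from 89.9 to 98.2 CPM.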

How the data were processed

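RNA of 6 vehicle cultures was sequenced as single libraries with reads of 40 bp. The authors deposited 1 table of estimated counts per gene (39.6% to 44.9% of the values above 0 were not whole, within 0.005) with a gene length, and a second table with an average transcript length and a GC percent per gene, also deposited by the authors. STAR, featureCounts and GRCh38 are named in the submitters' processing notes. No source used here says how strand was treated in counting, and the labels name both poly-A selection and a total RNA kit, which was not settled. The 6 columns of other libraries were not used, and 1 broken record spread over 3 lines was left out.

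Counts were divided by length and scaled to TPM over plain library totals. For variation, counts were scaled by TMM totals, and for edgeR 4.0.16 (R 4.3.3) they were rounded to whole numbers. DESeq2 1.42.0 size factors were an alternative. Tables and figures were made with Python 3.11.15, and the excess CV was tested on simulated data. Symbols matched 60400 of 60670 genes, and gene types came from GENCODE 29. No groups were compared and no p-value was computed. The spread between cultures is that between consecutive passages and may be partly technical.

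The text names members of the steroid receptor, ERBB, luminal factor, luminal structure, apocrine and basal lists, genes among the 20 of highest mean TPM outside the mitochondrial genome, the 15 of largest and 10 of smallest excess CV, and for other lists genes among the highest, the lowest above 0 and the most variable. Results on some members are not reported here. Other genes were picked out after their values were seen, among them the protein-coding genes ranked by TPM and those most variable without replicates 2 and 5. The members and lists were chosen with earlier results of these data known. Alternatives covered thresholds, totals, lengths, filters and left-out cultures. Promoter sequences are from RefSeq (GRCh38.p14).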

Additional observations from a re-analysis of the deposited data

Results flagged for a closer look

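For each value over the 6 cultures, the gap between an extreme culture and its nearest neighbour was divided by the whole range, and values above the 95% critical value of Dixon's test for 6 samples were listed. Of 196 values 45 passed, 24 of them through replicate 2. Chance alone lists about 1 in 20 groups, but many of these genes were chosen for their variation between cultures, so their number cannot be set against that rate. The figure after each name is this ratio, which reaches 1 where a single culture holds every count.

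Among the library measures, the total count was far lowest in replicate 6 (0.705), the summed TPM of luminal structural genes far highest in replicate 2 (0.747), and the log2 ratio of KRT8 over KRT19 nearest 0 in replicate 1 (0.661). In replicate 2 the luminal and epithelial genes far above the other cultures were KRT8 (0.714), CRABP2 (0.714), KRT19 (0.875), SPDEF (0.750), KRT7 (0.815), CLDN3 (0.719) and JUP (0.650). The stress and amino-acid genes there were TRIB3 (0.853), PHGDH (0.890), CHAC1 (0.963), SESN2 (0.749), SLC7A5 (0.833) and DDIT4 (0.799). The others were RPL10P16 (0.702), GAPDH (0.820), TPGS1 (0.824), LRRC26 (0.757), TMEM238 (0.751), TMEM160 (0.722), RPL28 (0.808), CLIC3 (0.801) and ALKBH7 (0.787). KMO (0.644) was far lowest in replicate 2.

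In replicate 1 the antiviral genes IFIT1 (0.655), DDX60 (0.661) and RIGI (0.652) were far highest, and so were PGR (0.631), DHRS2 (0.716), TNFSF11 (1) and CYP1A1 (0.667). TNFSF11 rested on 1 count. In replicate 6 the matrix genes COL3A1 (0.759), POSTN (0.765) and FN1 (0.714) stood far above the rest, with CYP4X1 (0.838), UGT2B11 (0.717) and GREB1 (0.722). Replicate 5 was far lowest for CTNNA1 (0.787) and COL1A1 (0.682). Replicate 4 was far highest for ESR2 (0.658) and MET (1), MET with 3 counts in all, and replicate 3 for CYP4F8 (0.648) and ALOX15B (0.669). No cause of these values was tested.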

How the results depend on the processing

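Of 1238 values recomputed under the alternatives, 1202 kept their direction and moved by less than the spread between cultures or by less than 1.5 times for a count, 35 moved further and 1 reversed. All 4 ERBB receptors were on without replicates 2 and 5, at 0.5 TPM, at a mean of 1 TPM and at 1 CPM. The share of the 100 most abundant genes was 16.3% by CPM and 18.3% with mitochondrially encoded genes left out. With the average transcript length of the authors' table, the log2 ratios became 0.95 (TFAP2B over TFAP2A), 3.24 (TFAP2B over TFAP2C), 0.32 (GATA3 over FOXA1), -2.28 (KRT8 over KRT19) and, reversed, -0.83 (KRT18 over KRT8). The number of variable genes was 1232 to 3454 with each culture left out in turn, lowest without replicate 2, and 5069 at a mean of at least 1 CPM and 1648 at an excess CV of at least 0.4. Leaving out replicates 2 and 5 together gave 106 variable genes and a common CV of 0.104, and removing the length and GC trends gave 1168. These last 2 settings were chosen after seeing the data. With the trends removed, the interferon medians were -0.34, -0.43, -0.48 and 0.20 in replicates 2, 3, 4 and 6. Levels under 0.690 CPM in replicate 6 rest on fewer than 3 counts, which are counting limits only. No paired analysis was possible because no groups were compared.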
